A study of Mus musculus with 15 samples.

Results

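Expression of 10 genes of TGF-beta, activin and BMP signaling was examined in a pair of mouse lung carcinoma cell lines, in the tumors they formed and in normal lung. The genes were the TGF-beta ligands Tgfb1, Tgfb2 and Tgfb3, their receptors Tgfbr1 and Tgfbr2, the activin subunit gene Inhba, the ligands Bmp2, Bmp4 and Bmp7, and the intracellular inhibitor Smad7. They were chosen by name, and all 10 were found among the 55359 genes of the expression matrix. In the cultured 57SCLC cells, Tgfbr2, Bmp4 and Tgfb2 had almost no reads and Inhba had none, whereas Bmp7 was high. The 46LCNEC cells had the opposite pattern, with high Tgfbr2, Bmp4 and Tgfb2 and hardly any Bmp7. In the tumors of the 57SCLC line Tgfb1, Tgfb2, Tgfbr2, Bmp4 and Smad7 were higher than in its cultures. In those of the 46LCNEC line Tgfb2, Tgfbr1, Bmp4 and Smad7 were lower and Tgfb3 and Tgfbr2 higher, so that Tgfbr2 was higher in the tumors of both. The calls of Bmp4 and Smad7 in 57SCLC and of Tgfb2 in 46LCNEC were lost when single samples were left out. Markers of fibroblasts, leukocytes and endothelium were also higher in the tumors, and the part of host cells was not tested.

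TGF-beta family ligands are secreted as dimers that bring together type I and type II receptors, which are serine/threonine kinases at the cell surface. TGF-beta ligands signal through the type II receptor TGFBR2 and the type I receptor TGFBR1 to SMAD2 and SMAD3, activins reach the same SMADs through their own receptors, and BMPs act on SMAD1, SMAD5 and SMAD9. SMAD7 is induced by these pathways and blocks the receptors. In epithelial cells TGF-beta is known for growth arrest and for inducing mesenchymal genes, and in lung BMP4 and TGF-beta take part in airway branching and repair.

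The study sequenced poly-A RNA of 15 samples in 5 groups of 3, namely 46LCNEC_cell, 46LCNEC_allo, 57SCLC_cell, 57SCLC_allo and Lung. Both lines came from lung tumors of QKO mice, which carry a set of tumor suppressor alleles that includes conditional Rb1 and Trp53 on a background without Rbl1. The 46LCNEC line was derived from a large cell neuroendocrine carcinoma that arose after Ad-CMVcre, an adenovirus with Cre under the ubiquitous CMV promoter. The 57SCLC line came from a small cell lung carcinoma that arose after Ad-K5cre, with Cre under the keratin 5 promoter of basal cells. The 46LCNEC cells grew attached and the 57SCLC cells as floating aggregates, both in medium with serum, and their samples came from separate dishes (46LCNEC) or flasks (57SCLC). The 46LCNEC_allo and 57SCLC_allo samples were tumors that formed after injection of these cells with Matrigel under the skin of immunocompetent QKO mice. Lung was normal lung tissue of littermates of the recipients, so that it and the host cells of the allografts came from animals of the same stock. The ages of the animals are not given in the sources used here. Each tumor type was represented by 1 cell line, so that a difference between the lines cannot be told apart from a difference between the tumor types, the Cre viruses or the culture forms.

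Sequencing depth ranged from 9480244 to 44876572 reads counted on genes, with a median of 26502525. Values are given as normalized counts, which are read counts divided by a size factor of each sample. Reads were counted on the conditional and deleted tumor suppressor genes in every group, with group means of 85.7 to 414 normalized counts for Rb1, 830.1 to 2881 for Rbl1 and 997 to 1465 for Trp53, and a value per gene does not show whether the deleted exons are present. The sum of 6 neuroendocrine markers was 35859 to 57587 in the 57SCLC samples and 176 to 192 in Lung. It was at most 54.2 in the 46LCNEC samples, below Lung, although the line is labelled neuroendocrine. For that label the paper gives tumor histology and protein staining, with NCAM, SSTR2 and CGRP in cells and chromogranin A, CGRP and TTF-1 in allografts. The RNA sum of 6 genes does not measure these proteins. By RNA, the paper reports that a gene classifier of the human carcinomas separated both models. It also reports enrichment of a signature of the parental tumors in the 46LCNEC cells and allografts. The paper itself names neuroendocrine genes, Chga and Syp among them, as raised specifically in the 57SCLC samples. The sum of 5 alveolar markers was 204848 to 277666 in Lung and at most 218 in the other groups.

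Other cell types differed between the tumors, the cultures and Lung, which touches every comparison of allografts or of Lung. The sum of 8 fibroblast markers was 27.1 to 32.2 in 57SCLC_cell, where Col3a1, Dcn and Lum had at most 3 reads in every library, and 43210 to 66635 in 57SCLC_allo. In the 46LCNEC line it was already 84982 to 95985 in the cultures and 449565 to 916053 in the allografts. In these cultures, Col1a1 and Col1a2 were called higher than in Lung, where 20.6% of all genes tested were. Dcn, Lum and Pdgfra were called lower, where 35.0% were. The sum of 6 leukocyte markers was 274 to 303 in 57SCLC_cell, 9054 to 18636 in 57SCLC_allo, 330.0 to 384 in 46LCNEC_cell and 19235 to 44195 in 46LCNEC_allo, and Itgam of that list had 0 reads in every library of the study. The sum of 6 endothelial markers was 98188 to 109679 in Lung, 5923 to 9949.6 in 46LCNEC_allo, 2809 to 3955 in 57SCLC_allo and at most 455 in the cultures. In these bulk samples, fewer cells of a type and less RNA per cell cannot be told apart.

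**Figure D1:**
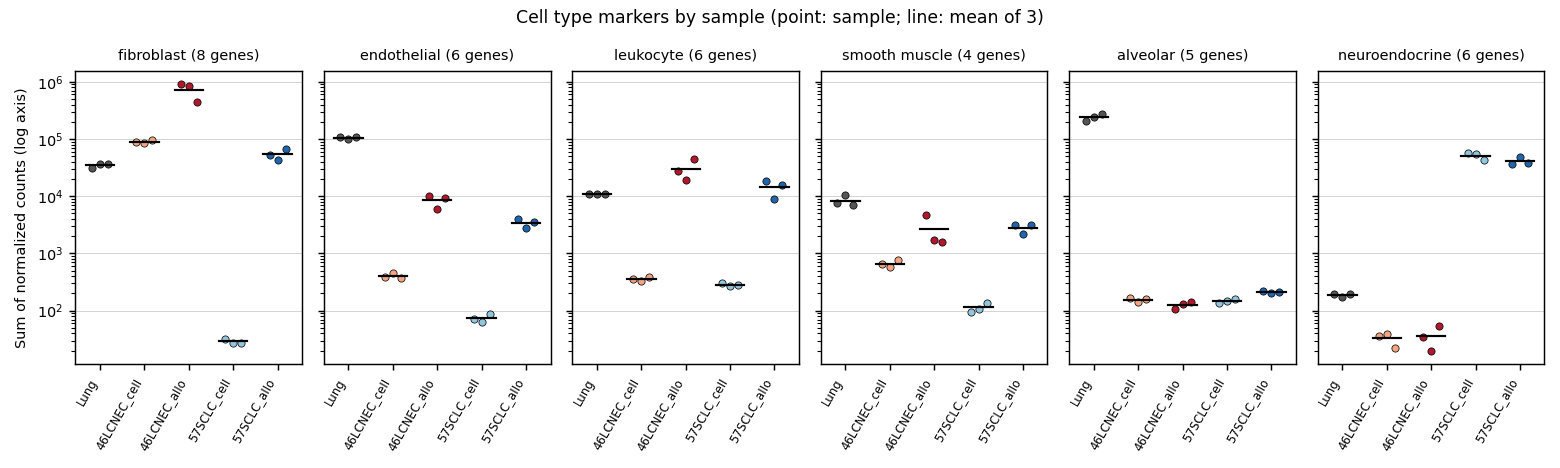
Sums of normalized counts of cell type markers in each sample, on a log axis, with 1 panel per marker list; points are the 3 samples of a group and the line is their mean. Fibroblast markers lay at 27.1 to 32.2 in 57SCLC_cell and at 43210 to 66635 in 57SCLC_allo, and neuroendocrine markers were high in 57SCLC samples and not in 46LCNEC samples.

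Sequence just upstream of the annotated start, where promoters lie, was available from RefSeq (build GRCm38.p6) for 6 of the 10 genes. The 250 bases before the start are shown for Tgfbr2, Bmp4 and Tgfb2, which had almost no reads in 57SCLC_cell, and for Tgfbr1, which had at least 2223 normalized counts in every sample. They are written 5′ to 3′ on the strand of the gene, and capitals mark matches, on either strand, to the motifs SMAD box (CAGAC), AP-1 (TGANTCA), CRE (TGACGTCA), GC box (GGGCGG) and TATA box (TATAAA).
Tgfbr2 (chr9:116175364-116175613, minus strand): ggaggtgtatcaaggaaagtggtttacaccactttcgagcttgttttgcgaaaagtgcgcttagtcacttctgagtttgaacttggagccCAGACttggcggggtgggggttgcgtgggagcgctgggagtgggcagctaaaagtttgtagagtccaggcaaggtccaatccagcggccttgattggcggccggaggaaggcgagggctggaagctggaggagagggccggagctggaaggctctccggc
Bmp4 (chr14:46390670-46390919, minus strand): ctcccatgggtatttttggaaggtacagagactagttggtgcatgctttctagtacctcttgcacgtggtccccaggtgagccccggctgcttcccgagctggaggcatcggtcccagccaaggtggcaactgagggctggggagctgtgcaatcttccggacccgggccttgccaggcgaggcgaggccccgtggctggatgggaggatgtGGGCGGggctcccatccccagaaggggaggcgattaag
Tgfb2 (chr1:186705990-186706239, minus strand): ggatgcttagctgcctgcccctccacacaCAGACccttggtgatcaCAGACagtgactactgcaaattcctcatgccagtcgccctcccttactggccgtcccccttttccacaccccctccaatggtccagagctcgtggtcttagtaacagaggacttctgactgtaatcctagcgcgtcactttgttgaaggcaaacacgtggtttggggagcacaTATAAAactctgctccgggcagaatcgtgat
Tgfbr1 (chr4:47352972-47353221, plus strand): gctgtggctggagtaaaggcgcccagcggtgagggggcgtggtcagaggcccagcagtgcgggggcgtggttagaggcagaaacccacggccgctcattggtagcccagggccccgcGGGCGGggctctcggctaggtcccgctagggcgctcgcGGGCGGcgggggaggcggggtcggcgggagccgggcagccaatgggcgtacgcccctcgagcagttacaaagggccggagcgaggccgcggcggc
The Tgfbr2 sequence had 12 CG dinucleotides, that of Bmp4 11, that of Tgfb2 8 and that of Tgfbr1 29, against a median of 6 (quartiles 2 and 16) over all 32851 upstream sequences in the table. Tgfbr2 had 1 SMAD box, 160 bases before the start, and Tgfb2 had 2, at 221 and 204 bases, where 42.2% of all upstream sequences had at least 1. Bmp4 had 1 GC box at 38 bases and Tgfbr1 had 2 at 133 and 95 bases, a motif found in 32.7% of all. The sequence of Tgfb2 also held a TATA box 31 bases before the start, found in 12.4% of all. None of these 4 sequences held the AP-1 or CRE letters, which 6.7% and 1.5% of all upstream sequences did, and no match overlapped another. The table held another upstream entry for Tgfbr1 (chr4:47385966-47386215), not shown, with 3 CG dinucleotides, 1 SMAD box and no GC box.

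Tgfb1 (ENSMUSG00000002603, GRCm39 chromosome 7, 25386390 to 25404506) encodes the most widely expressed TGF-beta, made by leukocytes, fibroblasts and many epithelia. It had 2988, 2926 and 2772 normalized counts in dishes A, B and C of 46LCNEC_cell and 4976, 6327 and 4185 in tumors 312, 319 and 321 of 46LCNEC_allo. In 57SCLC_cell it had 205, 195 and 214 in flasks A, B and C, and in 57SCLC_allo 1767, 1256 and 1985 in tumors 275, 316 and 317. Lung had 3234, 2696 and 2972. The 57SCLC cultures were the lowest and the 46LCNEC allografts the highest, and only Lung and 46LCNEC_cell overlapped. 57SCLC against 46LCNEC gave a log2 value of -3.82 in cells (SE 0.08, adjusted p = 8.94e-09) and -1.63 in allografts (SE 0.22, adjusted p = 8.57e-04; limma with Benjamini-Hochberg adjustment over all genes tested). Tgfb1 rose from 57SCLC_cell to 57SCLC_allo by 3.0 on the log2 scale (SE 0.17, adjusted p = 3.46e-06, limma), whereas its 0.81 from 46LCNEC_cell to 46LCNEC_allo did not reach 2-fold. The sums of fibroblast and leukocyte markers were also higher in the allografts of both lines than in their cells, and the part of host cells in the rise of Tgfb1 was not tested.

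Tgfb2 (ENSMUSG00000039239, chromosome 1, 186354985 to 186438294), a TGF-beta that needs the co-receptor betaglycan for strong binding to TGFBR2, separated the lines more widely. Its normalized counts were 3954, 4927 and 5659.9 in 46LCNEC_cell, 2563, 1319 and 1283 in 46LCNEC_allo and 1349.9, 1592 and 1824 in Lung. They were 3.27, 6.63 and 10.9 in 57SCLC_cell, from 6, 11 and 21 reads, and 57.5, 72.2 and 68.1 in 57SCLC_allo. Every 57SCLC sample was below every other sample, and 46LCNEC_allo overlapped with Lung. 57SCLC against 46LCNEC gave a log2 value of -9.36 in cells (SE 0.35, adjusted p = 1.22e-07, limma) and -4.61 in allografts (SE 0.30, adjusted p = 3.97e-05, limma). Between cells and allografts, Tgfb2 moved in opposite directions, with -1.56 in 46LCNEC (SE 0.28, adjusted p = 0.00311, limma) and 3.19 in 57SCLC (SE 0.39, adjusted p = 3.45e-04, limma). The fall in 46LCNEC no longer passed when any 1 of the 3 dishes was left out (adjusted p 0.0103 to 0.0177, limma).

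Tgfb3 (ENSMUSG00000021253, chromosome 12, 86102756 to 86126301), a TGF-beta known for palate fusion, was highest in the 46LCNEC allografts. It had 4988, 8113 and 2773 normalized counts in tumors 312, 319 and 321, against 508 to 591 in 46LCNEC_cell, 503 to 657 in 57SCLC_allo, 446 to 486 in Lung and 320 to 443 in 57SCLC_cell. All 3 tumors lay above all other samples, and among the other groups 57SCLC_allo overlapped with 46LCNEC_cell. Tgfb3 rose by 3.15 on the log2 scale from 46LCNEC_cell to 46LCNEC_allo (SE 0.35, adjusted p = 3.62e-04, limma), and its 0.56 in 57SCLC did not pass. It was the only gene of the 10 whose difference between the lines passed in allografts (log2 fold change -3.06, adjusted p = 5.28e-04, limma) and missed the threshold in cells (-0.47, adjusted p = 0.0177, limma). The test of the difference between both settings gave -2.59 (SE 0.42, adjusted p = 5.69e-04, limma). The fibroblast marker sum was also highest in 46LCNEC_allo (449565 to 916053), and the part of host cells in this difference was not tested. Genes on the opposite strand covered 13% of the exon bases of Tgfb3.

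**Figure D2:**
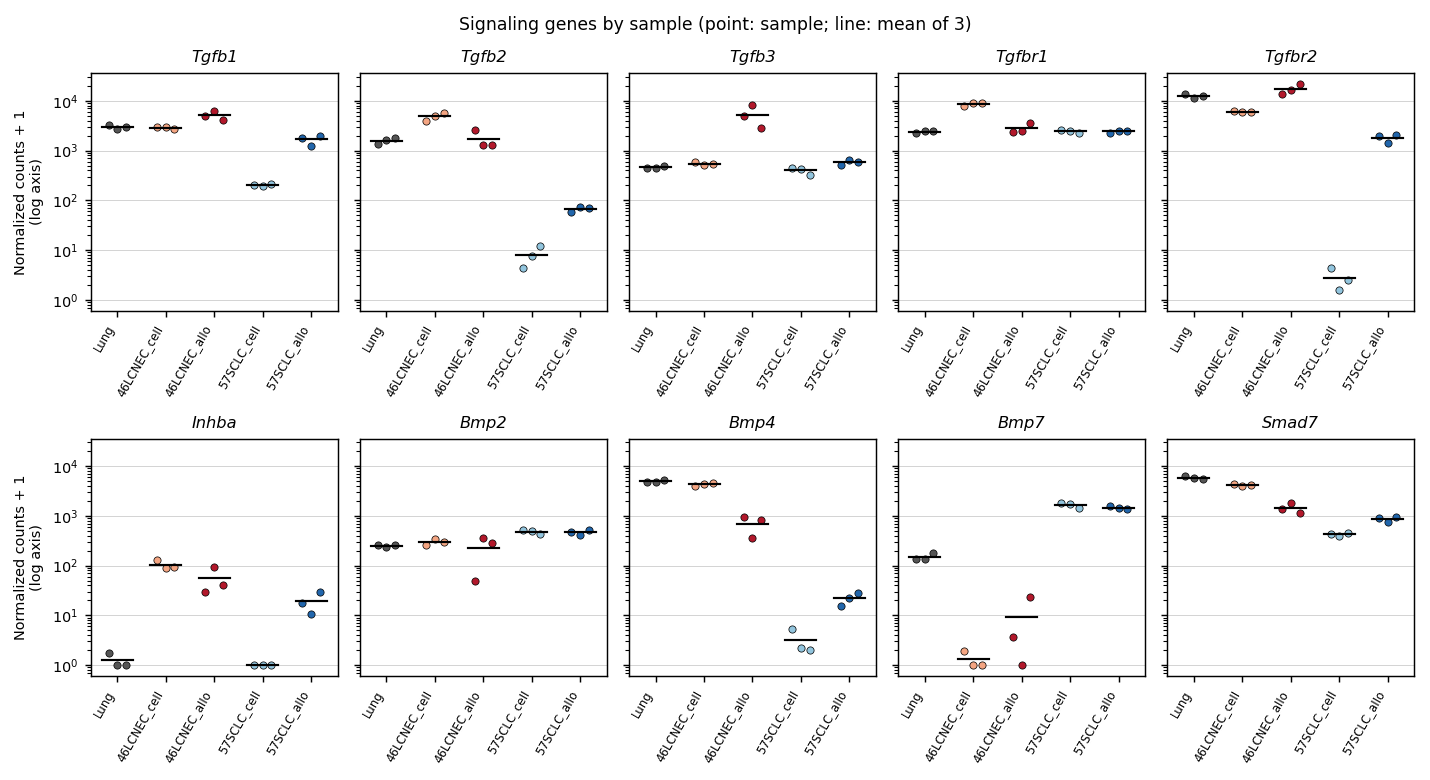
Normalized counts plus 1 of the 10 signaling genes in each of the 15 samples, on a log axis shared by all panels; points are samples and the line is the mean of 3. In 57SCLC_cell, Tgfbr2 lay at 0.603 to 3.27 and Inhba at 0 normalized counts, and Bmp7 was highest in the 57SCLC samples.

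Tgfbr2 (ENSMUSG00000032440, chromosome 9, 115913361 to 116004800), the type II receptor that binds TGF-beta first, was nearly absent from the 57SCLC cultures. Flasks A, B and C of 57SCLC_cell had 6, 1 and 3 reads, or 3.27, 0.603 and 1.56 normalized counts. Tumors 275, 316 and 317 of 57SCLC_allo had 2004, 1403 and 2006. The 46LCNEC_cell dishes had 6219.6, 6065 and 5906, the 46LCNEC_allo tumors 13784, 16307 and 21695, and Lung 13415, 11479 and 12709. No 2 groups overlapped. 57SCLC against 46LCNEC gave a log2 value of -11.19 in cells (SE 0.32, adjusted p = 3.43e-08, limma) and -3.25 in allografts (SE 0.21, adjusted p = 4.37e-05, limma). Tgfbr2 rose from cells to allografts in both lines, by 9.42 on the log2 scale in 57SCLC (SE 0.36, adjusted p = 6.01e-07, limma) and by 1.48 in 46LCNEC (SE 0.17, adjusted p = 4.13e-04, limma). The fibroblast, leukocyte and endothelial marker sums were also higher in the allografts of both lines than in their cells, and the part of host cells in the rise was not tested.

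Tgfbr1 (ENSMUSG00000007613, chromosome 4, 47353134 to 47414931), the type I receptor that phosphorylates SMAD2 and SMAD3, was by contrast present at like levels in 57SCLC, Lung and the 46LCNEC allografts. It had 2555, 2504 and 2223 normalized counts in 57SCLC_cell, 2272, 2497 and 2499 in 57SCLC_allo, 2288, 2428 and 2429 in Lung and 2408, 2494 and 3648 in 46LCNEC_allo. These groups overlapped, each with the next in order of the mean. Only 46LCNEC_cell stood apart, with 8014, 8836 and 9150.2. 57SCLC against 46LCNEC gave a log2 value of -1.84 in cells (SE 0.09, adjusted p = 4.10e-07, limma) and -0.21 in allografts (SE 0.17, adjusted p = 0.333, limma). In 46LCNEC, Tgfbr1 fell by 1.63 on the log2 scale from cells to allografts (SE 0.17, adjusted p = 2.82e-04, limma), and in 57SCLC the value was 0.00 (SE 0.09, adjusted p = 0.991, limma).

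Inhba (ENSMUSG00000041324, chromosome 13, 16186373 to 16206206) encodes the subunit that forms activin A as a dimer. No read fell on it in the 3 flasks of 57SCLC_cell, which allows up to 3 reads per library, and Lung had 1 read in CT3 and 0 in CT4 and CT5. It had 129, 90.5 and 93.0 normalized counts in 46LCNEC_cell, 29.1, 93.7 and 39.8 in 46LCNEC_allo and 16.8, 9.91 and 28.4 in 57SCLC_allo, the last from 7, 7 and 25 reads. Both 46LCNEC groups overlapped, and so did Lung and 57SCLC_cell at the bottom. The 46LCNEC cells were at least 62.3-fold higher than the 57SCLC cells (adjusted p = 8.88e-08, limma), taking the limit of 3 reads per library, and the 57SCLC allografts at least 11-fold higher than their cells. Inhba entered the test between the cultures only through 46LCNEC_cell, which set the direction. Against the single read of Lung, the ratio was 332 (95% counting interval 59.2 to 13148) in 46LCNEC_cell, 180 (31.8 to 7157) in 46LCNEC_allo and 62.1 (10.5 to 2516) in 57SCLC_allo, where the interval covers counting error only. The difference between the allografts did not pass (log2 fold change -1.45, SE 0.57, adjusted p = 0.0676, limma). Too few samples of 57SCLC_cell, 57SCLC_allo and Lung reached 10 normalized counts for a test of Inhba among them.

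Bmp4 (ENSMUSG00000021835, chromosome 14, 46620250 to 46636745), a BMP ligand expressed in the mesenchyme of the developing lung bud, had its highest values in Lung, with 4728, 4869 and 5166 normalized counts. The 46LCNEC_cell dishes had 3994, 4375 and 4655 and the 46LCNEC_allo tumors 926, 357 and 811. In 57SCLC_cell it had 4.36, 1.2 and 1.04, from 8, 2 and 2 reads, and in 57SCLC_allo 14.4, 21.2 and 27.2. No 2 groups overlapped. 57SCLC against 46LCNEC gave a log2 value of -10.55 in cells (SE 0.35, adjusted p = 7.09e-08, limma) and -4.92 in allografts (SE 0.44, adjusted p = 1.43e-04, limma). From cells to allografts Bmp4 fell by 2.75 on the log2 scale in 46LCNEC (SE 0.33, adjusted p = 5.61e-04, limma) and rose by 2.88 in 57SCLC (SE 0.47, adjusted p = 0.00176, limma). That rise stayed within 6 to 24 reads per tumor, and without tumor 317 it no longer passed (2.68, adjusted p = 0.0111, limma), nor without flask B (2.69, adjusted p = 0.0101, limma). Genes on the opposite strand covered 31.1% of the exon bases of Bmp4, and whether counting used the strand is not given in the sources used here. For the members other than Bmp4 and Tgfb3, this share was at most 6.5%.

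Bmp7 (ENSMUSG00000008999, chromosome 2, 172709805 to 172782410), a BMP ligand of epithelia that is needed for kidney and eye development, went the other way. It had 1789, 1732 and 1458 normalized counts in 57SCLC_cell, 1561, 1404 and 1381 in 57SCLC_allo and 132, 134 and 180.3 in Lung. In 46LCNEC_cell 1 read was found in dish A and none in B and C, and the 46LCNEC_allo tumors 312, 319 and 321 had 2, 0 and 20 reads. Both 57SCLC groups overlapped and lay above Lung, which lay above the 46LCNEC groups, and these overlapped. The 57SCLC cells were 5414 times as high as the 46LCNEC cells (95% counting interval 971 to 213849, against 1 read; adjusted p = 3.10e-08, limma), and the log2 fold change in allografts was 8.37 (SE 1.04, adjusted p = 6.33e-04, limma). Bmp7 entered the test between the cultures only through 57SCLC_cell, which set the direction. Against Lung, Bmp7 was higher in 57SCLC_cell by 3.48 on the log2 scale (SE 0.15, adjusted p = 3.26e-07, limma) and in 57SCLC_allo by 3.29 (SE 0.15, adjusted p = 5.91e-07, limma). From cells to allografts of 57SCLC the value was -0.19 (SE 0.10, adjusted p = 0.172, limma), and in 46LCNEC Bmp7 was too low to be tested.

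Bmp2 (ENSMUSG00000027358, chromosome 2, 133394079 to 133404816), a BMP ligand known for bone and heart formation, was the most even of the ligands. It had 520.4, 493 and 432 normalized counts in 57SCLC_cell, 469, 419 and 509.5 in 57SCLC_allo, 259, 345 and 298 in 46LCNEC_cell and 262, 236 and 259 in Lung. The 46LCNEC allografts had 354 and 284 in tumors 319 and 321 but 47.7 in tumor 312. Both 57SCLC groups overlapped and lay above all other samples. No comparison of Bmp2 passed both thresholds, and its log2 fold change over Lung was 0.93 in 57SCLC_cell (SE 0.12, adjusted p = 1.46e-04, limma) and 0.88 in 57SCLC_allo (SE 0.13, adjusted p = 3.56e-04, limma), just short of 2-fold. Scaling by library size alone brought both past it, at 1.16 and 1.09.

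Smad7 (ENSMUSG00000025880, chromosome 18, 75500374 to 75529006), the feedback inhibitor of TGF-beta and BMP receptors, was highest in Lung with 6232, 5691 and 5516 normalized counts. It had 4459, 3958 and 4248 in 46LCNEC_cell, 1355, 1803 and 1123 in 46LCNEC_allo, 917, 759 and 928 in 57SCLC_allo and 428, 384 and 458 in 57SCLC_cell. No 2 groups overlapped. 57SCLC against 46LCNEC gave a log2 value of -3.32 in cells (SE 0.09, adjusted p = 2.64e-08, limma) and -0.69 in allografts (SE 0.19, adjusted p = 0.0195, limma). From cells to allografts Smad7 fell by 1.59 on the log2 scale in 46LCNEC (SE 0.17, adjusted p = 3.43e-04, limma) and rose by 1.03 in 57SCLC (SE 0.12, adjusted p = 2.51e-04, limma). The rise in 57SCLC was close to the 2-fold limit and lay under it without flask B, tumor 275 or tumor 317 (0.96 to 0.99).

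Per kilobase of exon, which allows genes to be compared, the order of the ligands among the 10 genes differed between the groups. In 46LCNEC_cell they stood at 828 ± 63.3 normalized counts per kilobase for Bmp4, 774 ± 137 for Tgfb2 and 569.6 ± 21.9 for Tgfb1 (SD, n = 3). In 46LCNEC_allo Tgfb1 (1016 ± 213) and Tgfb3 (1015 ± 515) were the highest of these, and Bmp4 had 133 ± 57.4. In 57SCLC_cell Bmp7 had 376 ± 40.0, followed among these by Bmp2 with 104 ± 9.72, Tgfb3 with 76.1 ± 12.8 and Tgfb1 with 40.2 ± 1.85. In 57SCLC_allo Bmp7 (328 ± 22.1) and Tgfb1 (328 ± 73.6) stood level. In Lung the order of these was Bmp4 (939 ± 42.7), Tgfb1 (584 ± 53.0) and Tgfb2 (254 ± 37.9). Ligands outside the 10 genes stood near or above the highest of these in some groups, as did Bmp6 in Lung (3412 ± 315), Inha (361 ± 12.6) and Bmp8b (325 ± 59.6) in 57SCLC_cell and Inhbb (345 ± 8.26) in 57SCLC_allo. Of the receptors, Tgfbr2 stood above Tgfbr1 in Lung (1426 ± 111 against 359.7 ± 12.3) and in 46LCNEC_allo (1963 ± 459.6 against 430.4 ± 105), and below it in 46LCNEC_cell (689.6 ± 17.8 against 1309 ± 88.6), 57SCLC_allo (205 ± 39.5 against 366 ± 19.7) and 57SCLC_cell (0.206 ± 0.154 against 366 ± 27).

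The comparison of the lines asked how the small cell and large cell models differ. A gene was called at an adjusted p of at most 0.01 and a change of at least 2-fold. In cells, 1 of the 10 genes was called higher in 57SCLC (Bmp7), where 23.9% of all 16920 genes tested were, and 7 were called lower (Tgfb1, Tgfb2, Tgfbr1, Tgfbr2, Inhba, Bmp4 and Smad7), where 22.2% of all were. The median log2 fold change of the 10 was -3.57, against 0.00 over all genes tested, and did not move when Inhba was set at its bound. In allografts, Bmp7 was again the 1 gene called higher, against 16.1% of 17502 genes tested, and 5 were called lower (Tgfb1, Tgfb2, Tgfb3, Tgfbr2 and Bmp4), against 14.2%. The median there was -1.54, against 0.01 over all genes.

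**Figure D3:**
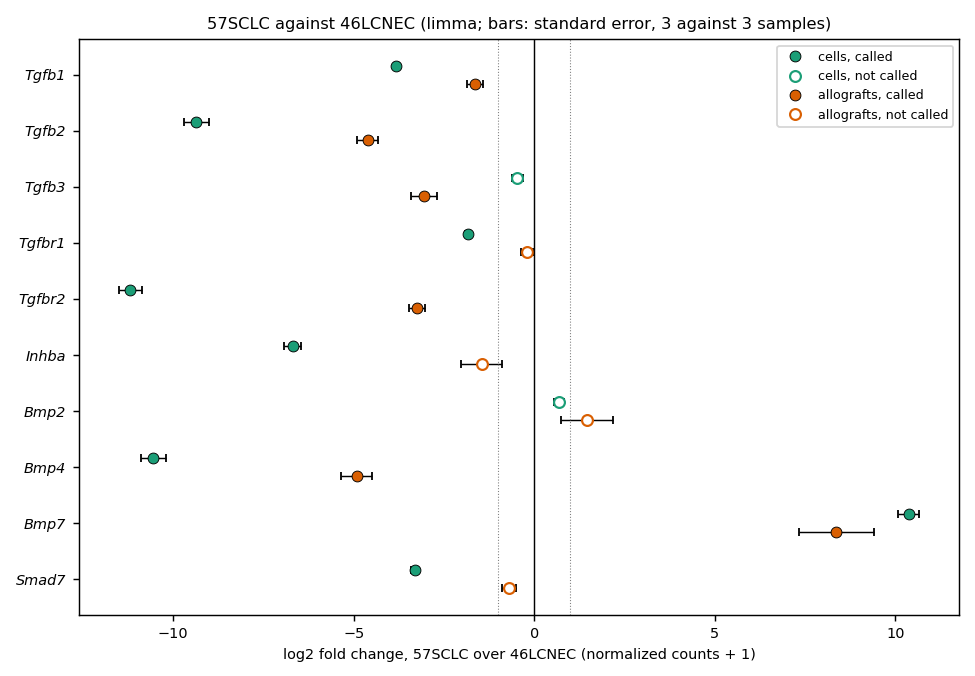
Log2 fold change of 57SCLC over 46LCNEC for each signaling gene in cells and in allografts, with its standard error (limma, 3 against 3 samples); filled points were called, dotted lines mark a 2-fold change. Bmp7 was higher in 57SCLC in both settings, and 7 genes in cells and 5 in allografts were lower.

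The comparison of tumors with cultures asked what differs when the same line grows under the skin. In 46LCNEC, 2 of 9 genes tested were called higher in allografts (Tgfb3 and Tgfbr2), where 14.4% of 16375 genes were, and 4 lower (Tgfb2, Tgfbr1, Bmp4 and Smad7), where 8.45% were. In 57SCLC, 5 of 9 genes tested were called higher (Tgfb1, Tgfb2, Tgfbr2, Bmp4 and Smad7), where 14.4% of 17078 genes were, and 0 lower, where 2.29% were. By limma at an unadjusted p under 0.05 the count of lower genes in 57SCLC was also 0, and edgeR and DESeq2 called 0. Without tumor 317, 3 of these 5 remained, and Bmp4 and Smad7 no longer passed. The test of the difference of both changes called 7 of 10 genes higher (Tgfb1, Tgfb2, Tgfbr1, Tgfbr2, Inhba, Bmp4 and Smad7), meaning that the value of allografts over cells was larger in 57SCLC than in 46LCNEC, where 10.8% of 18440 genes were, and 1 lower (Tgfb3), where 6.78% were. Tgfbr2 had the largest of these differences, with a fitted value of 7.94 on the log2 scale (SE 0.41, adjusted p = 7.68e-08, limma). Bmp2 and Bmp7 did not pass this test (adjusted p 0.470 and 0.194, limma). Of the fibroblast markers, 8 of 8 were called higher in the allografts than in the cells, in 46LCNEC as well as in 57SCLC. The rise was larger in 57SCLC for 6 of the 8 markers and smaller for 1 (Lum), and the part of fibroblasts in the differences was not tested.

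**Figure D4:**
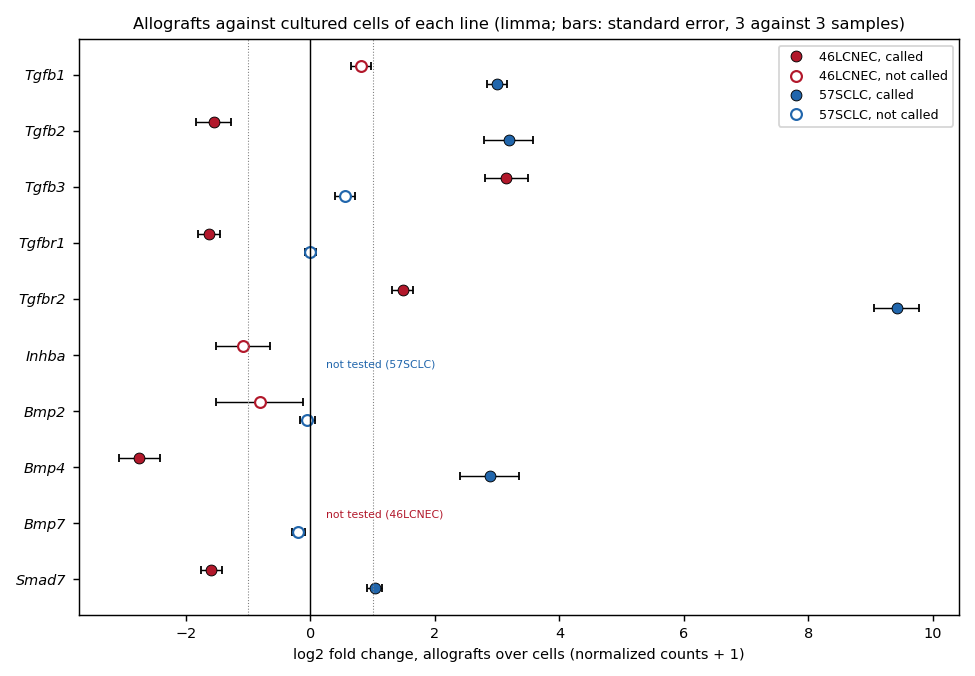
Log2 fold change of allografts over cultured cells for each signaling gene in 46LCNEC and in 57SCLC, with its standard error (limma, 3 against 3 samples); filled points were called, and genes with too few counts are marked as not tested. Tgfb2, Bmp4 and Smad7 lay at -1.56, -2.75 and -1.59 in 46LCNEC and at 3.19, 2.88 and 1.03 in 57SCLC.

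The comparisons with Lung share its 3 samples, so their values stand side by side only. Lung also had the highest sums of endothelial (98188 to 109679) and alveolar markers (204848 to 277666) of all groups. The part of such cells in these differences was not tested. In 46LCNEC_cell, 3 of 10 genes were called higher than in Lung (Tgfb2, Tgfbr1 and Inhba; 20.6% of 18142 genes tested were) and 2 lower (Tgfbr2 and Bmp7; 35.0%). In 46LCNEC_allo, 2 of 10 were called higher (Tgfb3 and Inhba; 13.4% of 18033) and 3 lower (Bmp4, Bmp7 and Smad7; 22.1%). In 57SCLC_cell, 1 of 9 tested was called higher (Bmp7; 21.1% of 18467) and 5 lower (Tgfb1, Tgfb2, Tgfbr2, Bmp4 and Smad7; 32.7%). In 57SCLC_allo, 1 of 9 was called higher (Bmp7; 18.9% of 18517) and 4 lower (Tgfb2, Tgfbr2, Bmp4 and Smad7; 26.9%). Tgfb1 lay at -3.85 against Lung in 57SCLC_cell (SE 0.10, adjusted p = 2.58e-08, limma) and at -0.85 in 57SCLC_allo (SE 0.17, adjusted p = 0.00203, limma), the latter short of 2-fold. Tgfbr2 in 46LCNEC_cell was close to the limit, at -1.04 (SE 0.08, adjusted p = 1.61e-06, limma), and edgeR (-0.92) and DESeq2 (-0.96) placed it under 2-fold. Bmp7 in 46LCNEC_allo, at -5.08 (SE 1.07, adjusted p = 0.00608, limma), rested on 0 to 20 reads per tumor, and edgeR gave an adjusted p of 0.0130. Scaling by library size alone moved the median of all genes by 0.21 to 0.27 (log2) in the 4 comparisons of 57SCLC with Lung or 46LCNEC, and all of these calls of the 10 genes remained.

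Genes known to be induced by TGF-beta were lower in 57SCLC_cell than in 46LCNEC_cell and Lung. Of 8 such genes (Ccn2, Tgfbi, Cdkn2b, Snai1, Snai2, Fn1, Thbs1 and Hmga2), 8 were called lower in 57SCLC_cell than in 46LCNEC_cell and 8 lower than in Lung, with median log2 fold changes of -6.90 and -5.66, against 0.00 and -0.12 over all genes tested. Of all genes tested, 22.2% and 32.7% were called lower. Fn1, the gene of fibronectin, had 5.09 ± 2.60 normalized counts in 57SCLC_cell and 85619.5 ± 7763 in 46LCNEC_cell (SD, n = 3). Hmga2, a chromatin protein of embryonic and mesenchymal cells, had 0.182 ± 0.315 and 18301 ± 2096. Ccn2, a matricellular protein, had no read in 57SCLC_cell and 14456 ± 2066 in 46LCNEC_cell. In 57SCLC_allo 7 of the 8 were called higher than in the cells, all but Cdkn2b, where 14.4% of all genes tested were. Their median was 5.66 for the 8 genes, against 0.00 over all genes tested. Fn1 reached 12838 ± 2624, Ccn2 2174 ± 248 and Tgfbi, an extracellular matrix protein, 726 ± 269.8. Many of these are also genes of fibroblasts, whose markers rose in the same tumors, and which cells made them was not tested. In 46LCNEC, 2 of the 8 were called higher in allografts (Tgfbi and Snai1), where 14.4% of all genes tested were. Another 3 were called lower (Ccn2, Thbs1 and Hmga2), where 8.45% of all were. The median of the 8 was 0.11, against -0.00 over all genes tested.

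Genes known to be induced by BMPs went in both directions between the cultures. Of 8 (Id1, Id2, Id3, Id4, Atoh8, Msx1, Msx2 and Hey1), 7 could be tested between the cultures, and 3 were called higher (Hey1, Id4 and Id2) and 3 lower (Atoh8, Id3 and Msx1) in 57SCLC. Of all genes tested there, 23.9% were called higher and 22.2% lower. Against Lung, 4 of 7 tested were called lower and 2 higher in 57SCLC_cell (median log2 fold change -1.55, against -0.12 over all genes), and 4 lower and 1 higher in 57SCLC_allo (-2.49 against -0.09). Over all genes tested, 32.7% were called lower and 21.1% higher in 57SCLC_cell, and 26.9% and 18.9% in 57SCLC_allo. In 46LCNEC_allo 6 of 7 were called lower than in Lung and 1 higher (-1.74 against -0.14), and in 46LCNEC_cell 3 lower and 1 higher (-0.49 against -0.23). The shares of all genes tested were 22.1% lower and 13.4% higher in 46LCNEC_allo, and 35.0% and 20.6% in 46LCNEC_cell. Id4, which encodes an inhibitor of helix-loop-helix factors, had 558 ± 82.7 normalized counts in Lung, against 4751 ± 636 in 57SCLC_cell and 1548 ± 77.1 in 57SCLC_allo, and 534 ± 93.5 in 46LCNEC_cell and 16.7 ± 8.94 in 46LCNEC_allo. Id2, of the same family, had 6008 ± 516 in 57SCLC_cell and 817 ± 192 in 46LCNEC_cell. From cells to allografts, 4 Id genes were called lower in 57SCLC (Id1, Id2, Id3 and Id4), where 2.29% of all genes tested were, and 1 gene higher (Msx1), where 14.4% were. Msx1 rose in 57SCLC by 4.20 on the log2 scale (SE 0.43, adjusted p = 1.18e-04, limma). Id1 fell there by 2.40 on the log2 scale (SE 0.18, adjusted p = 1.82e-05, limma). In 46LCNEC, 4 were called lower (Id1, Id3, Id4 and Atoh8), where 8.45% of all genes tested were, and 2 higher (Msx1 and Hey1), where 14.4% were. Hey1, a Notch and BMP target, rose by 6.14 (SE 0.27, adjusted p = 7.83e-06, limma). Hey1 is also expressed in endothelium, whose 6 markers were all called higher in the allografts of both lines. In 57SCLC, Hey1 was not called between cells and allografts. Its mean in the cells was 1010 normalized counts in 57SCLC_cell and 11.8 in 46LCNEC_cell. The part of endothelium in the rise of Hey1 in 46LCNEC was not tested.

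**Figure D5:**
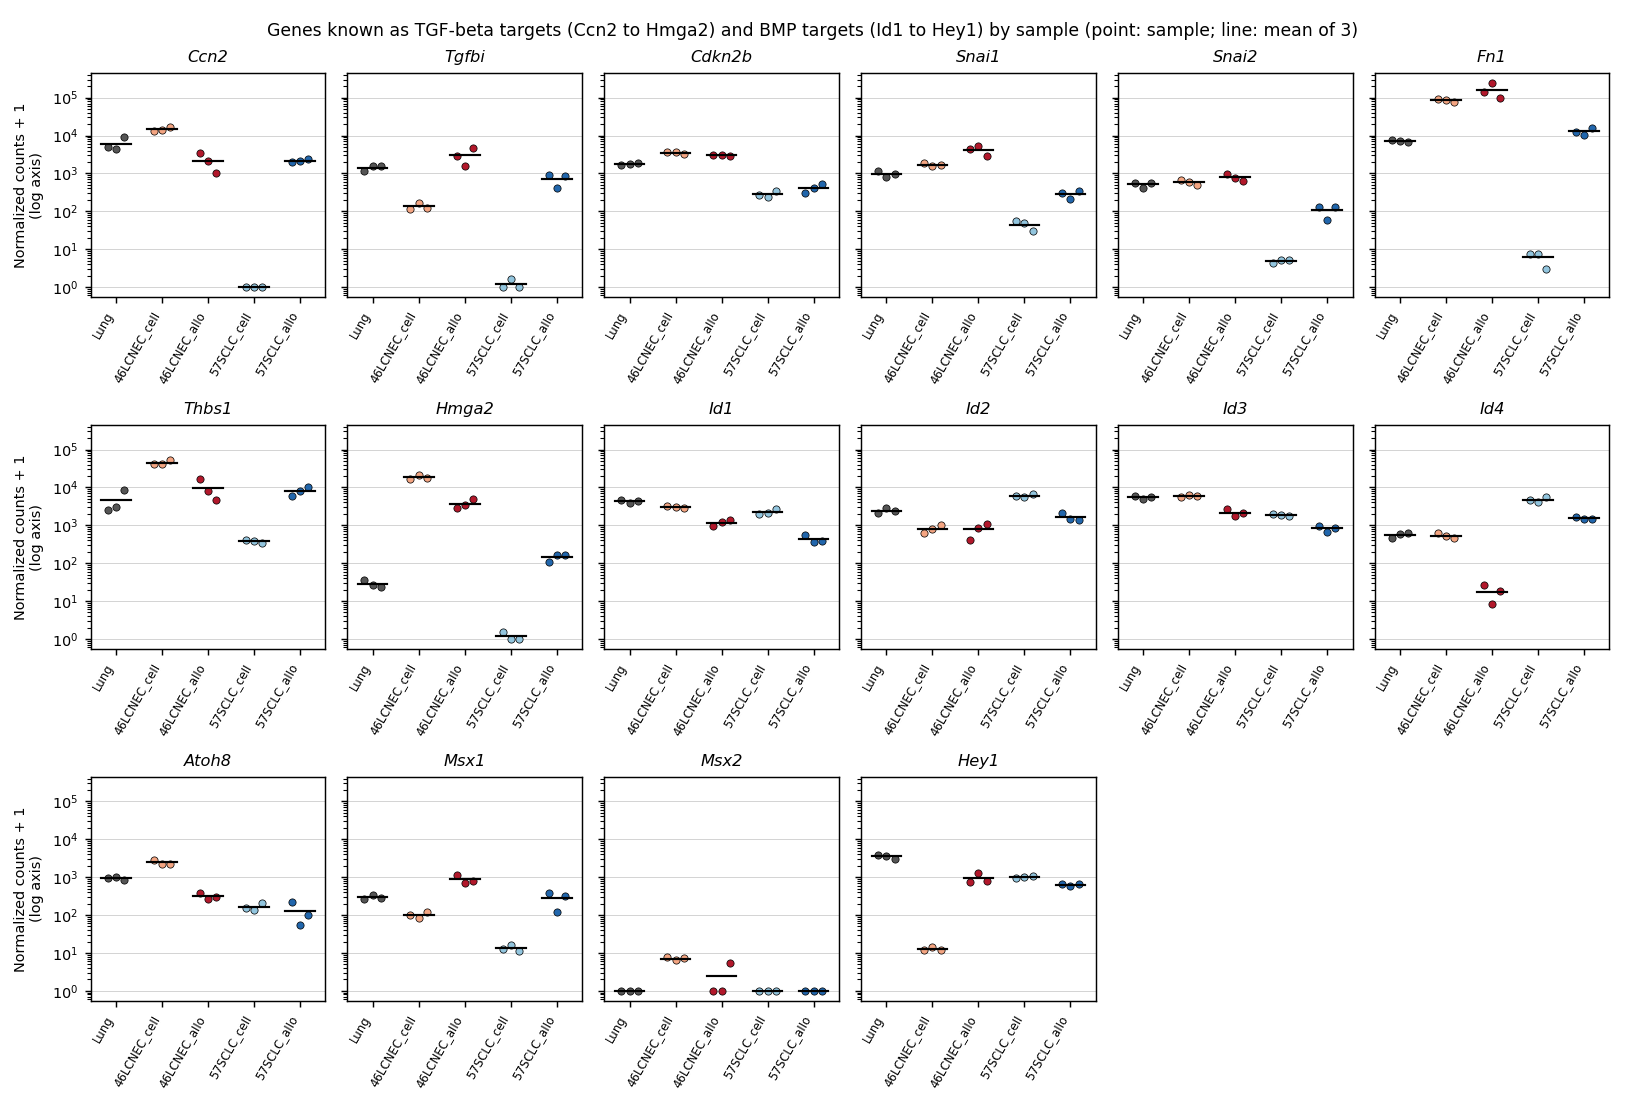
Normalized counts plus 1 of genes known as TGF-beta targets (Ccn2 to Hmga2) and as BMP targets (Id1 to Hey1) in each sample, on a shared log axis; points are samples and the line is the mean of 3. Fn1 lay near 5.09 in 57SCLC_cell and near 85619.5 in 46LCNEC_cell, whereas Id2 and Id4 were highest in 57SCLC_cell.

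The SMADs that carry the signal were mostly present everywhere. Of 7 SMAD genes besides Smad7, 2 were called lower in 57SCLC than in 46LCNEC, Smad3 and Smad6, in cells (22.2% of all genes tested were) and again in allografts (14.2%). Smad3, the direct DNA-binding effector of TGF-beta, had 2595 ± 162 normalized counts in Lung, against 92 ± 34.5 in 57SCLC_cell and 453 ± 91.1 in 57SCLC_allo, and 3586 ± 291 in 46LCNEC_cell and 4311 ± 643 in 46LCNEC_allo. It rose by 2.33 on the log2 scale from cells to allografts of 57SCLC (SE 0.27, adjusted p = 2.24e-04, limma). Smad6, the inhibitor of BMP signaling, was highest in Lung with 13532 ± 1679.8 and had 238 ± 68.7 in 57SCLC_allo. Smad9, a BMP effector, was called lower in the allografts of both lines than in their cells, with 46.7 ± 28.5 against 772 ± 96.6 in 46LCNEC and 76.0 ± 10.7 against 789 ± 103 in 57SCLC.

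Of 11 further receptor genes, 1 was called higher in 57SCLC than in 46LCNEC in both settings (23.9% of all genes tested were in cells and 16.1% in allografts), Acvr2b, a type II receptor for activins, with 762 ± 79.2 normalized counts in 57SCLC_cell and 41.5 ± 4.61 in 46LCNEC_cell. In cells 4 were called lower, where 22.2% of all genes were, among them Bmpr1b, a type I BMP receptor, by -2.35 (SE 0.15, adjusted p = 2.68e-06, limma). Eng and Acvrl1, endothelial receptors for BMP9 and BMP10, were called lower than in Lung in all 4 other groups, with 20083 ± 1484 and 22029 ± 1446 in Lung and 18 ± 5.79 and 1.2 ± 1.67 in 57SCLC_cell. Both were called higher in the allografts of each line than in its cells, as were the endothelial markers.

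Genes that store and activate latent TGF-beta were low in 57SCLC_cell. Of 9 such genes, 9 were called lower there than in Lung, with a median log2 fold change of -6.34 against -0.12 over all genes tested, and 6 of 7 tested were called lower than in 46LCNEC_cell. Of all genes tested, 32.7% and 22.2% were called lower. Ltbp1, which tethers latent TGF-beta to the matrix, had 20.7 ± 19.6 normalized counts in 57SCLC_cell and 26940.5 ± 2463 in 46LCNEC_cell, and Itgb8, whose integrin releases the ligand, had 0.182 ± 0.315 and 853 ± 74.7. In 57SCLC_allo 5 of 8 tested were called higher than in the cells, where 14.4% of all genes tested were. Lrrc32, which displays latent TGF-beta on regulatory T cells and endothelium, reached 1043 ± 283 from 0.939 ± 0.367, and Nrros, its counterpart on macrophages and microglia, 755 ± 235 from 0.923 ± 0.819. Nrros had no read in 46LCNEC_cell and 1829 ± 380.4 in 46LCNEC_allo, where leukocyte markers were also present.

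Of 19 other ligands, 11 were tested between the cultures, with 4 called higher in 57SCLC and 2 lower, where 23.9% and 22.2% of all genes tested were. Those called higher were led by Bmp8b, a BMP of germ cells and brown fat (1906 ± 349.6 normalized counts against 14.5 ± 4.95), and Inha, the inhibin subunit that opposes activin (2411 ± 83.9 against 111 ± 9.18). Of the 2 called lower, Gdf15, a stress-induced ligand, had 10.5 ± 5.37 against 186 ± 42.7. Inhbb, the activin B subunit, rose in the allografts of both lines, from 13.8 ± 6.39 to 3314 ± 815 in 46LCNEC and from 165 ± 19.4 to 1482 ± 35.5 in 57SCLC. Bmp6, a BMP ligand, was highest in Lung, with 13376 ± 1236 against 27.5 to 55.7 in the means of the other groups. Of 12 antagonist genes, Grem1, a secreted BMP inhibitor of stromal cells, had 3783 ± 356 in 46LCNEC_cell, 9086 ± 3346 in 46LCNEC_allo and 9.50 ± 1.73 in 57SCLC_cell. Cer1, which binds Nodal and BMPs, had 242 ± 83.2 in 57SCLC_cell and 986 ± 99.9 in 57SCLC_allo with no read in 46LCNEC_cell or Lung and 12, 83 and 9 reads in the 46LCNEC_allo tumors. Bambi, a pseudoreceptor that blocks type I receptors, had 2099 ± 77.2 in 57SCLC_cell and 1025 ± 118 in 46LCNEC_cell and was called lower in the allografts of both lines. Of 6 feedback genes inside the cell, 5 were called lower in 57SCLC_cell than in 46LCNEC_cell, where 22.2% of all genes tested were. They were led by Pmepa1, a TGF-beta-induced inhibitor of SMAD signaling, with 1062 ± 91.8 against 14802 ± 580.1.

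Genes whose log2 normalized counts ran most like those of each member over the 15 samples were looked up among 13485 genes, where the 5 groups set most of the spread. For Tgfbr2 they were Lipa and Colec12 (Pearson r 0.997 for both), for Tgfb1 Gja1 and Epb41l3 (0.994 for both), for Tgfb2 Ppfibp1 (0.992) and Epb41l2 (0.991), and for Tgfb3 Zfp449 (0.956) and Arsb (0.954). For Tgfbr1 they were Krtap1-5 (0.988) and Tars2 (0.982), for Inhba Pdlim7 (0.977) and Runx3 (0.976), and for Smad7 Npr3 (0.982) and Fank1 (0.979). For Bmp7 they were Hook1 and Fam222a (0.992 for both), for Bmp4 Myo1c (0.990) and Pttg1ip (0.988), and for Bmp2 Zbtb10 (0.932) and Pcbd1 (0.912). Colec12, a scavenger receptor gene, had group means of 4659 normalized counts in Lung, 0.182 and 758 in 57SCLC cells and allografts and 1446 and 5122 in those of 46LCNEC, the same order of groups as for Tgfbr2.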

How the data were processed

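Poly-A RNA of 15 samples was sequenced as paired reads, aligned by the authors to GRCm39 with Rbowtie2, counted on GENCODE genes with featureCounts and divided by DESeq2 size factors; strandedness and multi-mapping are not given in the sources used here. The deposited signal values are these normalized counts. Each column was a whole multiple of the value of 1 read (100.0% of values, tolerance 0.01), which gave the read counts, and 0 columns were left without a sample. Positions and exon lengths came from a later GENCODE release on the same build, which held 54749 of 55359 gene identifiers (98.9%). The genes and lists were chosen with earlier results of these data known, and 1 gene of the TGF-beta target list is not reported here.

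A gene entered a test if 3 or more of the samples compared had 10 or more normalized counts, and was tested with limma 3.58.1 (mean-variance trend) on log2(normalized count + 1) and Benjamini-Hochberg adjustment over all genes tested. This scale understates changes of low genes. Between 2 groups, a gene under 10 normalized counts in all samples of one could enter only through the other, which set its direction. That was so for Inhba in 57SCLC_cell and Lung, Bmp7 in 46LCNEC_cell, and Tgfbr2 and Bmp4 in 57SCLC_cell. For these genes the p-value is no further evidence of the direction. Calls required an adjusted p no higher than 0.01 together with a 2-fold change in either direction. The difference between the lines in the change from cells to allografts was tested over the 12 samples of both lines. On simulated data limma recovered 100% of 200 changed genes with 0 other calls, for 57SCLC_allo against Lung (18333 genes) and for that difference (17510 genes). The size of the changes and the spread between samples were set in the simulation. Its outcome is therefore only a check of the procedure. It does not measure power or false calls in the real samples, where some genes had few reads or varied widely between tumors. Alternatives were edgeR 4.0.16 and DESeq2 1.42.0 on the recovered reads, library size scaling, a pseudocount of 5, no filter, an adjusted p of 0.05, all samples in 1 model, each sample left out, and a block for the letters A, B and C of the cultures. Further genes were named by rule: of each pathway list, up to 3 called genes per direction with the largest change and at least 100 normalized counts in the higher group, and for each signaling gene the 2 genes with the highest Pearson correlation over the 15 samples among those reaching 100 normalized counts in 3 or more samples, without predicted genes named Gm or Rik. Intervals and the limit of 3 reads cover counting error only. Nothing says that the 3 flasks or dishes of a line were independent beyond being separate vessels, so p-values there measure the spread between vessels.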

Additional observations from a re-analysis of the deposited data

Results flagged for a closer look

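For 8 of the 10 signaling genes, the difference between allografts and cells was not the same in both lines by limma's test of that difference (adjusted p at most 5.69e-04). It was called larger in 57SCLC for 7 genes, where 10.8% of all 18440 genes tested were, and smaller for 1, where 6.78% were. On the log2 scale, 57SCLC minus 46LCNEC, the difference was 2.18 for Tgfb1, 4.74 for Tgfb2, 1.63 for Tgfbr1, 7.94 for Tgfbr2, 5.24 for Inhba, 5.63 for Bmp4 and 2.62 for Smad7, and it was -2.59 for Tgfb3. For Tgfb2, Bmp4 and Smad7 the genes fell in 46LCNEC and rose in 57SCLC. Tgfbr2, Tgfb1, Tgfb2, Tgfb3, Bmp4, Smad7 and Inhba had their lowest values of the 4 tumor line groups in 57SCLC_cell. Inhba had no read there, so that the value for Inhba depends on the pseudocount. The sum of fibroblast markers differed between cells and allografts as well, with means of 29.0 and 53900 in 57SCLC and 90066 and 732100 in 46LCNEC, and its part was not tested.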

How the results depend on the processing

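Of 1188 fold changes of the signaling genes under alternatives, 1149 kept their direction and their side of the thresholds, 16 lost a call, 5 gained one and 18, none of them called, turned sign. The count of genes called stayed within 1.5 times of the reported one in all but one case: for allografts against cells of 57SCLC it was 3 without tumor 317, which ended the calls of Bmp4 and Smad7 (range 3 to 6 with samples left out). Other calls were lost for Bmp7 in 46LCNEC_allo against Lung (edgeR, and without CT3, CT4, CT5 or tumor 312), for Tgfbr2 in 46LCNEC_cell against Lung (edgeR, DESeq2 and without CT3) and for Tgfb2 between allografts and cells of 46LCNEC (without any 1 dish). The cause was not tested. Inhba in 46LCNEC passed from cells to allografts, among the alternatives run, only without tumor 319 (-1.56, adjusted p = 0.00442, limma). Scaling by library size turned the sign of Tgfb2 in 46LCNEC_allo against Lung (-0.00733) and of Tgfbr1 between the allografts (0.0528), and edgeR (0.0936) and DESeq2 (0.0560) that of Tgfb1 in 46LCNEC_cell against Lung. With samples left out, the last ran from -0.0995 to 0.0318 and Tgfb2 in 46LCNEC_allo against Lung from -0.28 to 0.22. Tgfbr1 ran from -0.00512 to 0.0692 in 57SCLC_allo and from -0.0133 to 0.0870 in 57SCLC_cell against Lung, and from -0.0634 to 0.0443 between them. Bmp2 ran from -1.10 to 0.33 in 46LCNEC_allo against Lung, from -1.35 to 0.0865 against 46LCNEC_cell, from -0.13 to 0.0246 between allografts and cells of 57SCLC and from -0.14 to 1.30 in the difference of these changes, where tumor 312 set the sign in 46LCNEC. Cultures with the same letter did not deviate together (correlations 0.0916, -0.0837 and -0.00619), and with the replicate block 8 genes were called between the cultures, as without it. Few reads limit Bmp7 in 46LCNEC and Inhba, Bmp4, Tgfb2 and Tgfbr2 in 57SCLC_cell.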
